A study of Caenorhabditis elegans with 2 samples.

Results

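The authors' list made by the irreproducible discovery rate (IDR) method holds 3909 regions of GMEB-1 occupancy. A place on it does not mean that both biological replicates had the region. Of the 3909, 634 overlapped no region of replicate 1's own list and 18 none of replicate 2's. In 311 (7.96%) the summit lay in an exon of a protein-coding gene, and these exonic summits are described here. They comprised 74 summits in coding sequence (CDS, 1.89% of the list), 173 in 5' untranslated regions (5' UTRs, 4.43%) and 64 in 3' UTRs (1.64%). Members were chosen by the position of their summit in that list, a measured value, so the size of each class is a description and not a finding. Where a base belonged to several classes, CDS came before 5' UTR and 5' UTR before 3' UTR. The other 3598 summits of the list lay between genes (2613), in introns (704) or in non-coding genes (281).

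The regions come from chromatin immunoprecipitation and sequencing (ChIP-seq) of Caenorhabditis elegans, in which DNA crosslinked to a tagged protein is recovered and mapped. Whole mixed-sex larvae of the L2 stage were used, from strain OP343, whose genotype is unc-119(ed3) III with the transgene wgIs343, which supplies eGFP-tagged gmeb-1. Both biological replicates belong to this 1 group and list the same control experiment. No other genotype, stage or treatment was sampled, and the labels name no deletion of the native gmeb-1 gene. In whole larvae, strong occupancy in few cells and weak occupancy in many cannot be told apart. Region lists hold no reads and no expression values, so read depth is unknown and the stage could not be checked against marker genes.

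GMEB-1 belongs to a family of SAND-domain DNA-binding proteins named in mammals for the glucocorticoid modulatory element. Transcription factors are usually recovered at promoters, upstream of or at transcript starts. In the compact worm genome an exon can also be promoter sequence: a 5' UTR sits at the gene's own start, divergent genes share a short gap, and in tandem genes the 3' UTR of an upstream gene can reach into the promoter of the next gene. Many worm messages are trans-spliced, which removes the first bases of the primary transcript and can place the annotated start downstream of the true one.

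Sequences at a few summits are printed here, the first set because the same run of bases recurred in more than 1 exonic class. The other sets were picked for reasons given with each. They were read from the RefSeq WBcel235 genome, which is build ce11, and are written 5′ to 3′ on the strand that carries the run. The first set shares the run in capitals, which occurred within 50 bp of the summit of 1 CDS, 2 5' UTR and 1 3' UTR member. They lie at chrV:17921624-17921653, chrIII:1080722-1080751, chrIV:9386219-9386248 and chrX:3106289-3106318, all read from the minus strand.
C06H5.8 3' UTR: tccaaaaatGCAAGTGCGCTCCatcgctac
rab-18 5' UTR: gtgccaagtGCAAGTGCGCTCCatcgctct
daf-15 CDS: gtgattcgtGCAAGTGCGCTCCgttgcact
K10B3.5 5' UTR: acgttgtatGCAAGTGCGCTCCaccgacaa

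The run GCAAGTGCGCTCC, searched on both strands, was in the windows of 28 IDR summits in all (0.716% of 3909), and in 2 of 9170 windows at low-ranked regions of the pooled list. It was picked after its occurrence had been seen, as was every run of 13 bases shown here. Both 13-base runs shown were taken from those in exactly 4 members. A run that overlaps this one was in 5 members, adding the 5' UTR summit in snpc-1.1. It contains GCGCTC, the reverse complement of GAGCGC, which is counted separately below.

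A second run, shown because it recurred in 4 members of the 5' UTR class, contains CTGCGT, the reverse complement of ACGCAG. The 30 bases lie at chrIV:3311410-3311439 (plus strand), chrV:903656-903685 (minus), chrV:12951356-12951385 (plus) and chrIII:10318963-10318992 (plus).
zip-11 5' UTR: acctatctCTGCGTCTCTCACgccggcacg
fmo-5 5' UTR: cctcgctgtCTGCGTCTCTCACcagactcc
T16G1.18 5' UTR: tacggtctCTGCGTCTCTCACtcctacatc
unc-69 5' UTR: acaattctCTGCGTCTCTCACgctcgccgc

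CTGCGTCTCTCAC was in the windows of 22 IDR summits (0.563%) and in 1 of the 9170 low-ranked windows. Another pair was picked because, among pairs of the 10 strongest CDS summits, its windows shared the longest run of bases. That run, in capitals, was 24 bases long and was in 0 other IDR windows. The sequences lie at chrII:6047808-6047837 (plus strand) and chrV:10342253-10342282 (minus).
R12C12.6 CDS: aagTAAAACAAGAAGTGCGCCAGTGCAact
K07C5.13 CDS: aaaTAAAACAAGAAGTGCGCCAGTGCAtct

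The last pair is shown because both regions ranked in the first 10 of replicate 1's own list. Their windows held neither 13-base run. Few IDR windows hold either run (0.716% and 0.563%), so this absence does not set the pair apart. The central 30 bases lie at chrX:5429544-5429573 and chrII:8577560-8577589, both on the plus strand, which is the strand of both genes.
pks-1 CDS: actcatctcgtgtcccttcgccaatgctta
puf-5 3' UTR: cctctactagaaacgccatctagtgataat

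Exonic summits had a lower median signal in the IDR list than the other IDR summits pooled, and one close to that of intronic summits. The deposited signal, the value the authors' caller gave each region, had a median of 55.3 at CDS summits, 62.2 at 5' UTR summits and 55.3 at 3' UTR summits, against 70.1 at the other 3598. It was 58.4 over all exonic summits, against 60.4 at the 704 intronic ones. Ranks in replicate 1's own list ran otherwise for CDS. Where that list had a region, the median rank was 2012, better than 2131.5 for the other IDR regions. Among the 500 strongest IDR regions, 3 had a CDS summit, 17 a 5' UTR summit and 3 a 3' UTR summit. The strongest member was ints-4 (signal 815.3, rank 44 of the IDR list), a gene for an Integrator complex subunit. The weakest were ZK112.4 and F32D8.13, both in CDS, at ranks 3903 and 3904. The lowest CDS member (F32D8.13) had a signal of 38.7 and the next CDS summit of the pooled list, in uso-1, had 38.5 and fell outside the IDR list. In the 5' UTR class the values on the inner and outer side of the threshold were 39 (hpo-10) and 38.5 (nhr-177), and in the 3' UTR class 38.9 (mfsd-13.1) and 38.2 (M02D8.5).

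The replicates stood apart in strength: the highest deposited signal was 191.1 in replicate 1 and 1995.9 in replicate 2, so ranks are used between them. The 3 classes took different shares of the lists along the ranks. A sample of 1002730 evenly spaced genome positions held 24.6% CDS, 1.43% 5' UTR and 3.31% 3' UTR. Against these, the top 500 regions of replicate 1's list had 2.4% CDS summits and the top 500 of replicate 2's list 0.6%. The CDS share then climbed to 27.9% of the lowest regions in replicate 1 (ranks 20001 to 28693) and to 17.7% in replicate 2 (ranks 20001 to 30000). The 5' UTR share was 3.6% and 3.8% in the top 500 of replicates 1 and 2, and lower, at 1.83% and 1.42%, at those lowest ranks. Its highest values lay between, at 4.9% in replicate 1 (ranks 1001 to 2000) and 4.84% in replicate 2 (ranks 3001 to 3909). The 3' UTR share was 1.2% and 0.6% in the top 500, and 3.53% and 5.3% at the lowest ranks. Among the 3 exonic classes the lists diverged most in coding exons: 467 of replicate 1's own top 3909 regions had a CDS summit (11.9%), against 71 of replicate 2's (1.82%). The share in the IDR list, 1.89%, was close to that of replicate 2.

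**Figure D1:**
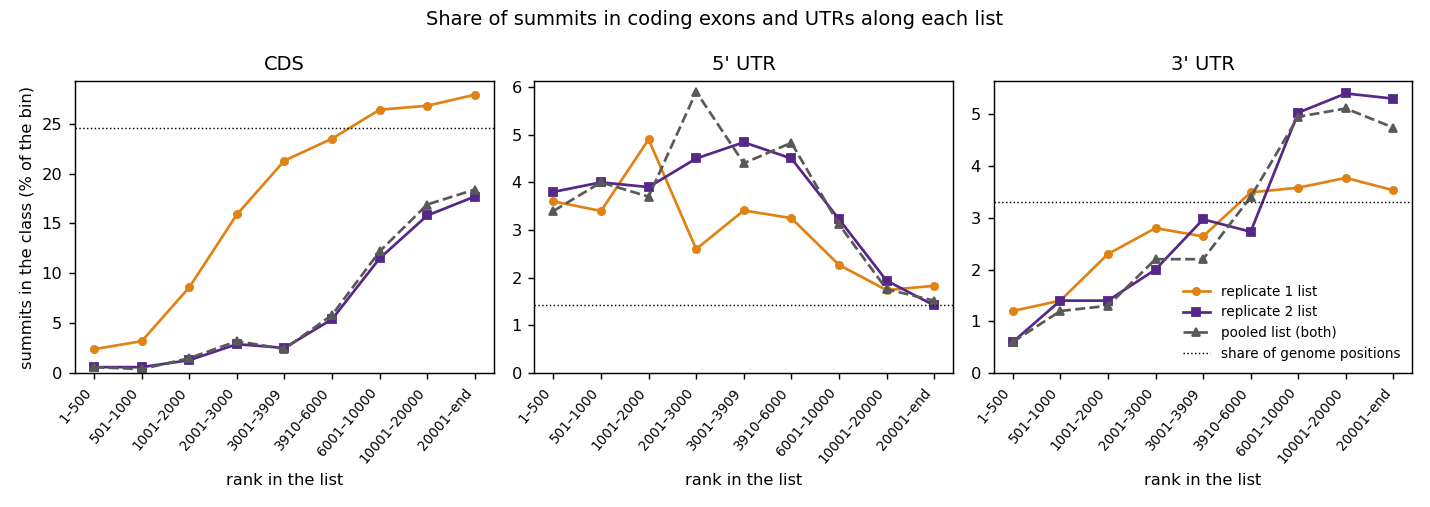
Share of summits in CDS, 5' UTR and 3' UTR (percent of the regions of a bin, vertical axis, a separate scale in each panel) along the ranks (horizontal axis) of replicate 1's, replicate 2's and the pooled list, with the share of genome positions as a dotted line. The CDS share of replicate 1's list climbs from 2.4% in the top 500 to 21.3% at ranks 3001 to 3909, where replicate 2's list has 2.53%; the 5' UTR share is above its genome share over all ranks up to 20000.

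The promoters that hold the exonic summits are given as a description, since the class largely sets them: a 5' UTR begins at its own gene's start and a 3' UTR ends far from it. A promoter was taken as 1000 bp upstream to 200 bp downstream of any transcript start of a protein-coding gene. Starts of non-coding genes were not counted. A tRNA, snRNA, snoRNA, miRNA or rRNA gene lay within 200 bp of 7 CDS (9.46%), 4 5' UTR (2.31%) and 3 3' UTR summits (4.69%). No such share over the whole list was computed. Of the 74 CDS summits, 31 lay in the promoter of their own gene and 9 (12.2%) in that of another gene, with 4 in both, and 38 (51.4%) lay in none. Of the 173 5' UTR summits, 158 lay in their own gene's promoter, 60 (34.7%) in another's, 56 in both and 11 (6.36%) in none. Of the 64 3' UTR summits, 0 lay in their own gene's promoter, 33 (51.6%) in another's and 31 (48.4%) in none. Over the whole IDR list 61.8% of summits lay in the promoter of a gene whose exons did not hold them, and 34.9% lay in no promoter. The 61.8% includes intronic summits in the promoter of the gene whose intron holds them, so it is not the same measure as the exonic shares. Among the 3598 other summits, which no coding-gene exon holds, 64.3% lay in a promoter and 35.7% in none. Of the other summits in introns 60.1%, and of those in non-coding genes 51.2%, lay in no promoter, so the CDS and 3' UTR shares were at or near those of other summits inside genes. No test was made, since regions of 1 list are not replicates.

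**Figure D2:**
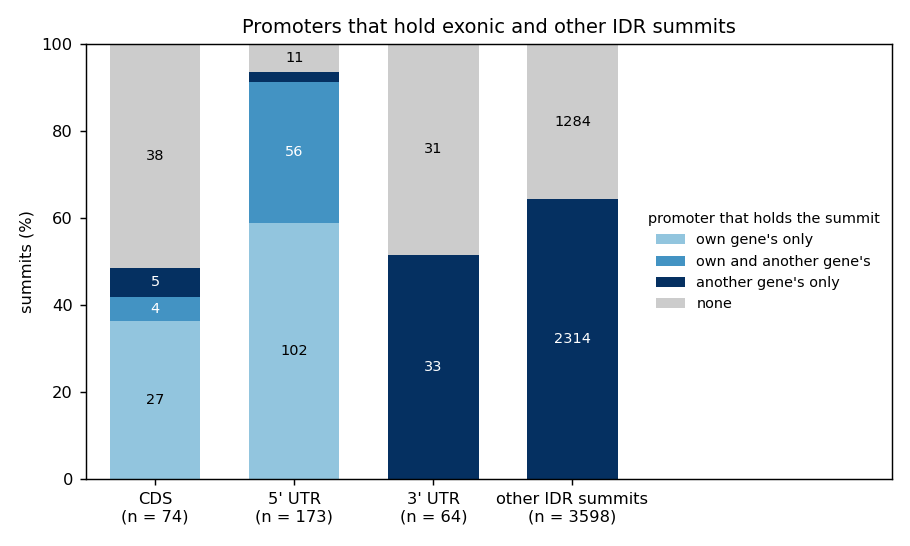
Promoters that hold the summits of each exonic class and, at the right, of the other IDR summits (percent of summits, vertical axis; numbers in the bars are counts). Of the 3' UTR summits, 33 lie in another gene's promoter and 31 in none, while 11 of 173 5' UTR summits lie in none.

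The strands of the neighbours follow largely from where UTRs lie in a gene, and no share over all UTRs was computed. Where a 5' UTR summit lay in another gene's promoter, the nearest such gene was on the opposite strand in 59 of 60 cases, read away from the summit. At 3' UTR summits the nearest such gene was on the same strand in 31 of 33 cases, downstream in tandem. At CDS summits it was on the same strand in 6 of 9. All 102 of these summits lay upstream of the neighbour's start. The median distance was 320 bp for 5' UTR summits, 338 bp for 3' UTR summits and 676 bp for CDS summits, and 45 of 60, 23 of 33 and 3 of 9 lay within 500 bp. With a promoter of 500 bp upstream and 100 bp downstream, 35.9% of 3' UTR, 26% of 5' UTR and 4.05% of CDS summits lay in another gene's promoter, so the CDS share fell by more than 1.5 times.

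**Figure D3:**
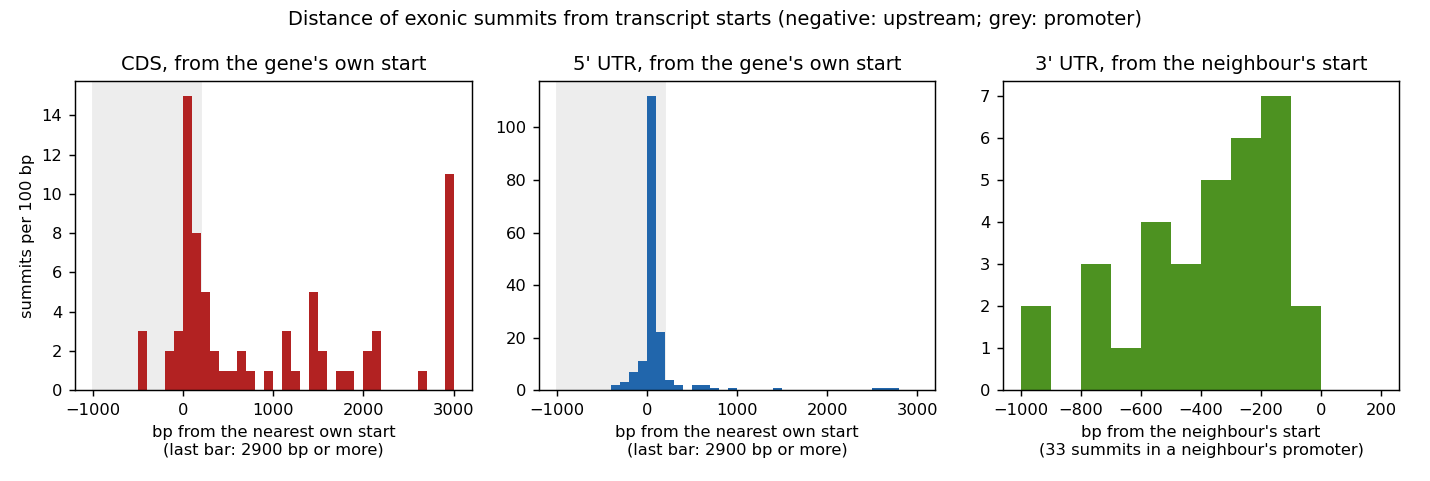
Distance of CDS and 5' UTR summits from the nearest start of their own gene, and of the 33 3' UTR summits in a neighbour's promoter from that neighbour's start (bp, horizontal axis; summits per 100 bp, vertical axis; negative is upstream). The 5' UTR summits gather at the start (median 24 bp downstream), the CDS summits spread to 15748 bp, and all 33 3' UTR summits lie upstream of the neighbour's start.

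Of the CDS summits, the strongest lay in daf-15, which encodes the worm Raptor, the partner of TOR kinase in TOR complex 1. Its summit (signal 475.6, rank 167) was 13 bp downstream of a start and at coding base 14 of the transcript of longest coding sequence, and 1 of its 5 transcripts placed it in CDS. It ranked 151 in replicate 2. In replicate 1 the best region overlapping it ranked 18985 of 28693, with a summit 241 bp away, so daf-15 was high in replicate 2 and low in replicate 1.

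The next, pks-1, encodes a polyketide synthase and was high in both replicates. Its summit (signal 357.7, IDR rank 267) ranked 10 in replicate 1 and 349 in replicate 2, with replicate summits within 3 bp of it. It lay in exon 22 of 30, 49.7% along the coding sequence, 15748 bp from the nearest start of the gene and at -15208 bp (upstream) of the nearest start of another, C41A3.2. The next IDR summit was 28847 bp away.

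Of the other 8 among the 10 strongest CDS summits, 5 lay within 200 bp of a start of their own gene. R12C12.6 (IDR rank 472; 1001 in replicate 1 and 469 in replicate 2) was 30 bp from its start and 272 bp upstream of ran-5 on the other strand. The summit in lelo-4 (rank 637; 2081 and 624) was 205 bp upstream of tiar-1, an RNA-binding protein gene on the other strand. K07C5.13 (rank 1253; 378 and 1375), which shares 24 bases with R12C12.6 as printed above, was 782 bp upstream of K07C5.3. The summits in abhd-5.2 (rank 1190; 1178 and 1189) and Y18D10A.4 (rank 1209; 823 and 1177) lay 127 and 67 bp from their own starts and in no other promoter. Regions of both replicates overlapped all 5, which were picked as among the 10 strongest of their class.

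CDS summits were spread along the coding sequence, at a median of 326 bp from the nearest start of their own gene. By place in the coding sequence, 24 of 74 lay in the first 25% and 30 in the last 25%, and 24 lay in the last exon against 21 in the first. The 38 CDS summits in no promoter had a median of 75.9% along the coding sequence, and 17 of them lay in the last exon. For 50 of the 74, every transcript of the gene placed the base in CDS, and 41 were within 50 bp of the edge of their exon. Another IDR summit lay in the gene's promoter for 7 of the 38 (18.4%) and for 15 of all 74 CDS summits (20.3%). No such share over the whole list was computed, here or for the UTR classes below.

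The 38 CDS summits in no promoter had a better median rank in replicate 1 than in replicate 2, though replicate 2's top 3909 regions overlapped more of them. They include 3 summits of hpl-2 and 2 each of unc-119 and C32F10.4, and summits that share an interval take the same replicate ranks. Replicate 1's list overlapped 36 of them, and 27 (71.1%) overlapped its top 3909 regions, against 17 of the 36 CDS summits in a promoter (47.2%) and 58.2% of the 1284 other IDR summits in no promoter. Replicate 2's top 3909 regions overlapped 29 of the 38 (76.3%), against 32 of the 36 (88.9%) and 91.4% of the 1284. Their median rank was 1390.5 in replicate 1 and 2696 in replicate 2, and the 1284 other summits in no promoter ran the same way, at 1992 and 2360. Over the whole list 55% of regions overlapped replicate 1's top 3909.

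Among them, 11 ranked in the stronger part of the list, its first 1954 regions, counting both strong hpl-2 summits and pks-1. The stdh-1 summit, in a steroid dehydrogenase family gene, was at 92.6% of the coding sequence (IDR rank 1456; 3284 in replicate 1 and 1361 in replicate 2). The pqm-1 summit, in a gene for a zinc finger transcription factor, was at 81% (rank 1893; 843 and 2366). The sodh-2 summit, in an alcohol dehydrogenase family gene, was at 99.1% (rank 1931; 338 and 2307).
Further such summits lay in T28F4.4 (rank 1373; 794 and 1447), F14B4.1 (rank 1780; 1084 and 1903) and F59B8.1 (rank 1953; 23664 and 1754). Of these 6 genes, 4 ranked better in replicate 1, while stdh-1 and F59B8.1 ranked better in replicate 2. A small RNA gene lay within 200 bp of the F14B4.1 summit.

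Several genes held more than 1 exonic summit, and these often differed between the replicates. The gene hpl-2 encodes a heterochromatin protein 1 homologue and held 3 CDS summits, in exons 2, 3 and 4. In replicate 1 its regions with CDS summits ranked 4, 22, 97 and 24175. In replicate 2 the region over its first summit ranked 2696 with its own summit in an intron, and its regions with CDS summits ranked 4109 and 20044. Replicate 1's list thus had 3 regions of its top 500 in this gene and replicate 2's list 0. The IDR summits ranked 1116, 1386 and 3323, and the first 2 shared 1 interval. None lay in a promoter.

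The gene unc-119, mutant in this strain, held 2 CDS summits, in exons 4 and 5. Integrated worm transgenes commonly carry a wild-type unc-119 copy as a selection marker, but the labels do not say so of wgIs343. The IDR summits ranked 687 and 2286. The overlapping regions ranked 38 and 185 in replicate 1, and 925 and 3321 in replicate 2. Replicate 1 had 5 regions of its top 500 in unc-119 and replicate 2 had 1, with a further strong IDR summit in an intron (rank 369). Of the 6 IDR summits within 40000 bp of unc-119, 2 were exonic, and of the 1 within 40000 bp of gmeb-1, whose tagged copy the transgene supplies, 0 were. Whether transgene copy number bears on these summits was not tested.

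The widest interval of the whole list, 3570 bp, held 5 summits at the start of lin-35, the worm retinoblastoma homologue, and 2 of them were in CDS of C32F10.4, a gene nested in lin-35 on the opposite strand. Those 2 had IDR ranks 1458 and 2570, and the 3 intronic ones ranked 28, 77 and 1765. In replicate 2 the interval's best summit ranked 26, and the summits nearest to the coding ones ranked 1307 and 2403. In replicate 1 the best region over the interval ranked 766, and its 2 regions in C32F10.4 ranked 2788 and 3093. Summits at the other end of lin-35 likewise ranked better in replicate 2 than in replicate 1. A CDS summit of lin-35 had IDR rank 2451, with 14093 in replicate 1 and 2484 in replicate 2. A summit in the 3' UTR of hmg-3, a FACT complex subunit gene read from the other side, had rank 1401 (12241 and 1277). The lin-35 gene held 17 regions of replicate 2's list and 9 of replicate 1's, of which 3 and 0 were in the top 500.

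A few other genes held more than 1 exonic summit. The gene hrg-7 held CDS summits at IDR ranks 2792 and 3335, and dmd-7, a gene of the doublesex and mab-3 related family, 5' UTR summits at ranks 1990 and 2346. C05D11.8 held 3' UTR summits at ranks 595 and 3659. In cbl-1 a CDS summit (rank 2137, none in replicate 1, 2122 in replicate 2) was 19 bp from a start, and a 3' UTR summit ranked 3184. In all, the 74 CDS summits fell in 69 genes, the 173 5' UTR summits in 172 and the 64 3' UTR summits in 63.

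The 5' UTR summits gathered at transcript starts. They lay a median of 24 bp downstream of the nearest own start, 167 of 173 in the first exon, and 23 upstream of the nearest start because another transcript began further out. Only 56 of 173 were 5' UTR in every transcript of the gene.

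Its 10 strongest members were led by ints-4, 50 bp from its start (IDR rank 44; 54 in replicate 1 and 47 in replicate 2). Y55F3BR.1, 86 bp from its start, was high in replicate 2 alone (rank 76; 3979 and 70). The summit in rab-18, a small GTPase gene, was 13 bp from its start and 139 bp upstream of kbp-4 (rank 80; 272 and 83). That summit carries the 13-base run shared with daf-15 and C06H5.8.

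The others of the 10 ranked between 100 and 315. The mrt-2 summit, in a checkpoint clamp gene, ranked 100 (331 in replicate 1 and 95 in replicate 2). The fan-1 summit, in a nuclease gene, ranked 125 (3358 and 121), and agt-2, an alkylguanine DNA alkyltransferase gene, ranked 315 (209 and 330). The agt-2 summit was 387 bp from its start, outside its own promoter, and 557 bp upstream of F09E5.3.
T10B5.3 ranked 139 (173 and 150) and lay 411 bp upstream of the kinetochore gene knl-3. F01F1.3 ranked 189 (1136 and 182) and lay 67 bp upstream of F01F1.11, and C03H5.3 ranked 268 (3102 and 265), 785 bp upstream of C03H5.5. All neighbours named in this class were on the other strand.

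Among the 10, C34C12.2 alone had its summit in no promoter. That summit was in the first exon but 2627 bp from the gene's start, and ranked 114 in the IDR list, 23 in replicate 1 and 130 in replicate 2. It was the highest of the 11 5' UTR summits outside promoters, all of which were overlapped by replicate 1's list and 10 of which were overlapped by its top 3909. For 5 of the 11, another IDR summit lay in the gene's promoter, against 25 of all 173 5' UTR summits (14.5%).

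The 3' UTR class fell into 2 groups of nearly equal size with different strengths. The 33 summits in a neighbour's promoter had a median signal of 80.3, and the 31 in no promoter 53.1, against 82 and 59.5 for the other IDR summits in and outside promoters. Of the 21 3' UTR summits among the 1954 strongest regions, 17 (81%) lay in another gene's promoter. Summits were a median of 118 bp from the end of the gene.

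The strongest was in C06H5.8, 159 bp upstream of E01B7.2 (signal 718.4, IDR rank 64; 650 in replicate 1 and 64 in replicate 2). The next, in the sperm gene spe-42, was 208 bp upstream of npp-22, which encodes a nuclear pore membrane protein, and was high in replicate 2 alone (rank 220; 13588 and 200). Y66D12A.6, 232 bp upstream of Y66D12A.7, was absent from replicate 1's list (rank 481; 456 in replicate 2). These 3 neighbours were on the same strand as the gene that held the summit.

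Similar tandem pairs followed. T20F5.8 was 172 bp upstream of the mitochondrial ribosome recycling factor gene mrrf-1 (rank 683, none in replicate 1, 608 in replicate 2). T10E9.14 was 130 bp upstream of nuo-2, a respiratory complex I gene (rank 719; 3802 and 684). The summit in tsen-54, a tRNA splicing endonuclease gene, was 338 bp upstream of F52C12.2 (rank 827; 2691 and 793).
The homeobox gene ceh-8 had a summit 662 bp upstream of the collagen gene col-63 (rank 886; 1091 and 910). T28F4.8 differed in that its summit also lay within the span of T28F4.4, on the opposite strand. It was 122 bp upstream of an internal start of T28F4.4 (rank 694, 1149 in replicate 1 and 655 in replicate 2).

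Of the 3' UTR summits outside promoters, 4 were among the 1954 strongest regions. C05D11.8 was the highest of them (signal 190.8, rank 595; 183 in replicate 1 and 660 in replicate 2), at -1736 bp (upstream) of the start of atgl-1, a triglyceride lipase gene. The others were nra-1, a copine gene (rank 1070; 1279 and 1032), hmg-3, given above, and kqt-2, a potassium channel gene (rank 1859; 12509 and 1571). Another IDR summit lay in the promoter of the gene itself for 12 of the 31 (38.7%), against 16 of all 64 3' UTR summits (25%).

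Replicate 1's relaxed list overlapped 83.8% of all IDR regions by at least 1 bp. It overlapped 66 of 74 CDS regions (89.2%), 131 of 173 5' UTR regions (75.7%) and 50 of 64 3' UTR regions (78.1%), against 84.2% of the other 3598. Replicate 2's list overlapped 73 of 74, 173 of 173 and 63 of 64, against 99.5% of the whole list. The IDR list was made from these same lists, so these shares are not independent of the choice of members. Requiring the replicate's own summit within 100 bp lowered replicate 1's shares to 63.5%, 65.3% and 53.1%, against 72.1% of the other summits.

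Among regions found in both lists, replicate 1 gave the better rank to 36 of 65 CDS regions (55.4%), 46 of 131 5' UTR regions (35.1%) and 17 of 49 3' UTR regions (34.7%), against 38.9% of the other IDR regions. The share was 49.2% for the other regions in introns, 52.3% in non-coding genes and 51.2% in no promoter, so the CDS share was close to these. Median ranks in replicate 1 were 2012, 2773 and 3201 for CDS, 5' UTR and 3' UTR regions, and 2131.5 for the others. In replicate 2 they were 2646, 2182 and 2622, and 1894.5 for the others. CDS regions shared the lower rank number in replicate 1 with the other IDR regions in introns (2063 in replicate 1 and 2289 in replicate 2) and in non-coding genes (1470 and 2011).

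**Figure D4:**
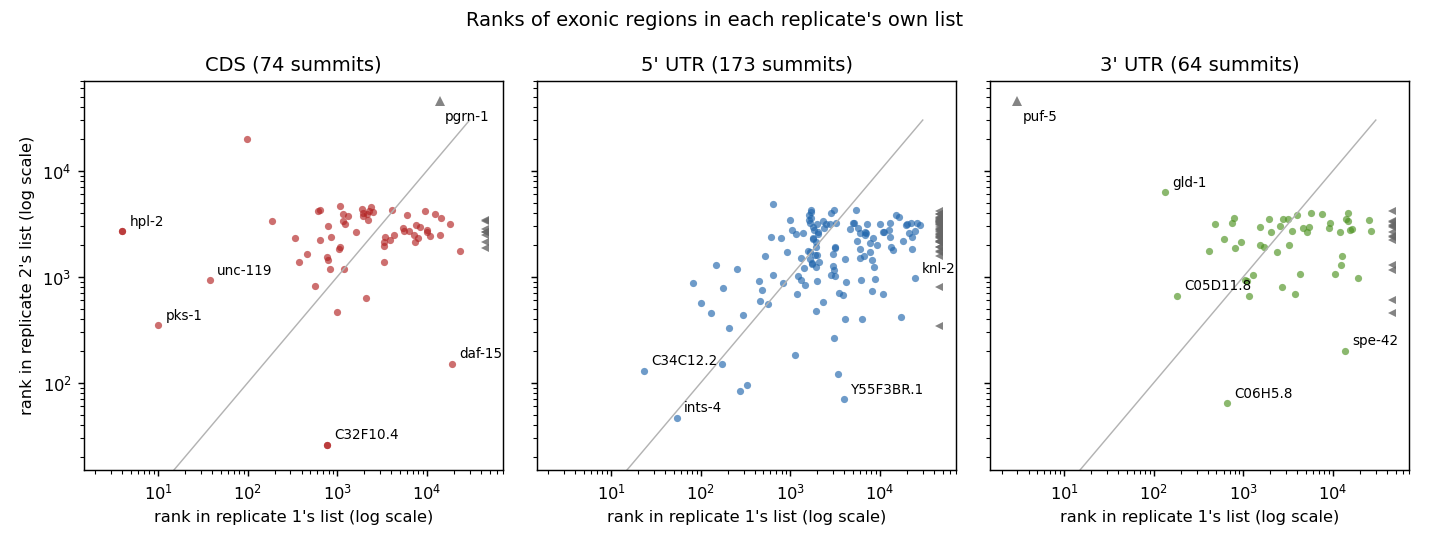
Rank of each exonic region in replicate 1's list (horizontal axis, log scale) and in replicate 2's list (vertical axis, log scale), by class; the line marks equal ranks, and grey triangles at the edge are regions that 1 of the lists lacks. CDS regions such as hpl-2 (ranks 4 and 2696), pks-1 and unc-119 lie left of the line, 42 5' UTR and 14 3' UTR regions are missing from replicate 1, and puf-5 is at rank 3 in replicate 1 with no region in replicate 2.

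Some members were placed far apart by the replicates. The 3' UTR summit in puf-5, a gene for an RNA-binding protein of oogenesis, was overlapped by the region ranked 3 in replicate 1 and by 0 regions of replicate 2's 30000. It entered the IDR list at rank 1449 and lay 475 bp upstream of F54C9.9. The 3' UTR summit in gld-1, another germline RNA-binding protein gene, ranked 132 in replicate 1 and 6242 in replicate 2 (IDR rank 2754), and a second region of replicate 1 in the same 3' UTR ranked 329. The only other member absent from replicate 2's list was the CDS summit in pgrn-1, the progranulin gene (rank 13836 in replicate 1, IDR rank 2360).
In the other direction, 64 members were absent from replicate 1's list, and the strongest of them, named after their values were seen, were the 5' UTR summit in exo-1, an exonuclease gene (IDR rank 363, 342 in replicate 2), and the 3' UTR summit in Y66D12A.6. Replicate 1's top 50 regions overlapped 4 CDS members (5.41%), 1 5' UTR member (0.578%) and 1 3' UTR member (1.56%), against 49 of the other 3598 (1.36%). Those 4 CDS members were pks-1, a summit of unc-119 and the 2 hpl-2 summits that share an interval, so they stand for 3 loci. Whether DNA from the transgene or another construct adds to the regions at puf-5, gld-1 and hpl-2 in replicate 1, or at lin-35 in replicate 2, was not tested, and their ranks are those of the lists, not a measure of occupancy shown in both replicates.

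Sequence near the summits was compared by counting short motifs on both strands within 50 bp. ACGT is the core of sites bound by the mammalian relatives, and the other motifs, described next, were found in earlier work on these same files. A window can hold several of them. ACGT was in 29.7% of CDS, 35.8% of 5' UTR and 26.6% of 3' UTR windows, against 26.1% of all IDR windows. Windows at low-ranked pooled regions of the same classes held it in 22.1%, 19.7% and 14.9% of cases.

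ACGCGC was in 0 of 74 CDS windows, a count that allows a share of up to 4.05% (3 counts of the total, for counting error only), against 12.3% of all IDR windows and 0.796% of 1633 low-ranked CDS windows. It was in 20 of 173 5' UTR windows (11.6%) and 4 of 64 3' UTR windows (6.25%), against 3.03% and 0.225% of low-ranked windows of those classes. All 4 of the 3' UTR windows with it were in a neighbour's promoter. GAGCGC was in 4.05% of CDS, 15% of 5' UTR and 10.9% of 3' UTR windows, against 12.4% of all, and its 7 3' UTR windows were also all in a neighbour's promoter, against 0 of the 31 in no promoter, a count that allows up to 9.68%.

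ACGCAG was in 6.76%, 15.6% and 14.1% of CDS, 5' UTR and 3' UTR windows, against 14.1% of all IDR windows. GAGAGA was in 12.2%, 22.5% and 14.1%, against 22.3% of all. Low-ranked windows held ACGCAG in 2.2% (CDS), 5.3% (5' UTR) and 0.676% (3' UTR) of cases, and GAGAGA in 5.57%, 8.33% and 10.4%. The 38 CDS windows in no promoter held ACGT in 34.2%, ACGCAG in 5.26%, GAGAGA in 10.5% and neither ACGCGC nor GAGCGC, where 0 of 38 allows up to 7.89%. Of the 1284 other IDR windows in no promoter, 5.3% held ACGCGC and 6.85% held GAGCGC. The mean GC content of windows was 43.8% ± 7.3 (SD over 74 windows) in CDS, 44.2% ± 7.51 in 5' UTR and 38.4% ± 7.52 in 3' UTR, against 44.2% ± 8.07 in the other IDR windows. Low-ranked windows of the classes had a mean GC content of 41.6%, 35.2% and 30.5%. The part of GC content in the motif shares was not tested.

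The host genes were counted in 20 gene lists matched by symbol, chosen with earlier results of these data known. Of 19973 protein-coding genes, 303 (1.52%) held an exonic summit. In 11 lists the count was 0, among them the 80 cytosolic ribosomal protein genes, 82 histone, 56 splicing factor, 189 collagen and 31 proteasome genes, the translation factor, aminoacyl-tRNA synthetase and respiratory chain lists, and those of the cytoskeleton, nuclear pore and RNA polymerase. These counts leave out genes whose promoter, but no exon, held an exonic summit. Examples are rpl-30, with the pab-1 summit 404 bp upstream, and pas-3, with the use-1 summit 172 bp upstream. For the smaller of these lists, a count of 0 is also near the overall share of 1.52%. The highest share was in small GTPases and membrane traffic, with 8 of 117 genes (6.84%). Of these, rab-18, vps-25 (an ESCRT subunit gene), cogc-8, sec-61.A and use-1 had 5' UTR summits, and cogc-3, rab-7 and vps-8 had CDS summits.

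Nuclear hormone receptors gave 7 of 269 genes (2.6%), led by nhr-47 (IDR rank 416; 130 in replicate 1 and 457 in replicate 2) and nhr-56 (rank 1330; 8620 and 1243), both in 5' UTRs. Other transcription factors gave 8 of 225 (3.56%), led by ceh-38 (rank 406; 294 and 434) in its 5' UTR and by ceh-8. The kinase and phosphatase list gave 4 of 89 (4.49%), led by kin-14 (rank 1025) and sur-7 (rank 1631), and sur-7 is not known as a kinase or phosphatase gene.
The chromatin list gave 4 of 124 (3.23%): hpl-2, lin-35, the histone deacetylase gene hda-3, and metl-17, a methyltransferase-like gene caught by the symbol pattern (rank 449). Ubiquitin conjugation gave 2 of 253, lin-23 and otub-4, both in 3' UTRs at ranks 3260 and 3837. Chaperones gave 1 of 66, the small heat-shock gene hsp-12.3 with a 3' UTR summit (rank 1476). The insulin, TGF-beta and Wnt list gave 1 of 83, daf-15. The chemoreceptor list, the largest, gave 3 of 1364 (0.22%): srh-2 in its 5' UTR (rank 729; 82 in replicate 1 and 879 in replicate 2), and srx-125 (rank 2726) and srbc-58 in CDS. No test was made of these counts.

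The classes also differed by chromosome. Chromosome I held 18 of 74 CDS summits (24.3%), 29 of 173 5' UTR summits (16.8%) and 21 of 64 3' UTR summits (32.8%), against 16.9% of the whole IDR list. X held 10 CDS (13.5%), 21 5' UTR (12.1%) and 4 3' UTR summits (6.25%), against 15.4% of the list. Exonic summits close to an edge depend on the annotation: 11 CDS, 39 5' UTR and 8 3' UTR summits lay within 10 bp of the end of their exon part, and 58 of the other 3598 summits lay within 10 bp of a coding exon or UTR.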

How the data were processed

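Region lists in narrowPeak layout were deposited for builds ce10 and ce11. Each replicate has a relaxed list that, per the deposited readme, includes background and was made with a control; the pooled list used both replicates, and the IDR list was made from these. Caller, aligner, IDR threshold and read numbers: not given in the sources used here. The deposited signal of a region was used only to rank and describe regions within a list, and the deposited −log10 q value was not used for ranking. The ce11 lists were placed in the Ensembl release 115 annotation of WBcel235 by summit, with 1-based positions. A replicate's rank is that of its best region overlapping the interval by at least 1 bp. Python 3.11.15, numpy 2.4.6, pandas 2.3.3, scipy 1.17.1 and matplotlib 3.10.9 were used, and placement, promoter and overlap functions were checked on simulated points. The relaxed lists held 28693 (replicate 1) and 30000 regions. Low-ranked windows were 9170 of the 10000 weakest pooled regions, at least 1000 bp from an IDR summit.

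Genes were named by rule: the 10 strongest summits of each class, CDS and 3' UTR summits in no promoter among the 1954 strongest regions, genes with 2 or more exonic summits, the 2 strongest of each list, unc-119 and gmeb-1, the 2 lowest ranks, and others singled out for the replicate gap. Members and lists were chosen with earlier results of these data known. No test was made: there is 1 group, and regions are not replicates. Alternatives were the midpoint, 1 transcript per gene, another class order, stronger regions, each replicate's own list, other promoters, overlaps and windows.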

Additional observations from a re-analysis of the deposited data

How the results depend on the processing

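No paired analysis was possible because both replicates belong to 1 group and no test was made. Values are percentages of the list or of the class. With each replicate left out in turn, so that the other's own top 3909 regions were used, CDS members ranged from 1.82 to 11.9, 5' UTR members from 3.61 to 4.27 and 3' UTR members from 1.82 to 2.25, where 11.9 is without replicate 2. Summits in another gene's promoter then ranged from 12.6 to 12.7 (CDS), 29.8 to 33.5 (5' UTR) and 36.4 to 50.7 (3' UTR). In the stronger 1954 regions, CDS members were 0.972 and 3' UTR members 1.07, 81 of 3' UTR summits lay in another promoter, and replicate 1 overlapped 93 of 5' UTR and 100 of CDS regions. With only the transcript of longest coding sequence, 5' UTR members were 2.94. A promoter of 500 and 100 bp gave 4.05, 26 and 35.9 (CDS, 5' UTR, 3' UTR), and 2000 and 500 bp gave 27, 50.9 and 65.6. Reciprocal overlap of 50% gave 66.2, 65.3 and 57.8 for replicate 1, and summits within 100 bp gave 63.5, 65.3 and 53.1. The cause was not tested, except that narrower promoters and stricter overlaps hold fewer summits by construction. Of 30 motif shares in windows of 25 or 100 bp, 13 moved outside the 95% Wilson interval of the 50 bp share, and ACGCGC stayed at 0 of 74 CDS windows in both. Read depth is unknown.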
